A study of Homo sapiens with 4 samples.

Results

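Heat shock proteins and their J-domain partners were examined in GIST-T1, a long-established human cell line of gastrointestinal stromal tumor (GIST) origin, after a miR-335 mimic was introduced. The members were the array probes whose gene name begins with HSP90, HSPA, HSPB, HSPH, HSPD, HSPE or DNAJ. HSPA5, the HSPBAP and HSPBP genes (4 probes) and pseudogenes (10 probes of 9 genes) were left out. This gave 74 of the 36337 gene names on the array, read by 112 of its 50599 probes. Of these, 81 probes of 60 genes were tested, because both arrays of 1 group or of each showed them well above background.

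Cells of the mimic group received 100 pmol of a mirVana miR-335 mimic, a chemically made double of the mature microRNA, and cells of the other group received 100 pmol of the mirVana Negative Control #1 by the same electroporation. The labels name no other treatment or modification, and the RNA delivered is the only difference between the groups that they give. Total RNA was taken 48 h later, and 100 ng was labeled with 1 dye and hybridized, with 2 arrays per group and 4 in all. The titles number the arrays in 1 run across both groups, without saying whether they came from separate cultures. The p-values therefore measure only the spread between these arrays. Replicate numbers used below count the arrays within each group. A second line in the description of both mimic samples names miR-34a, whereas their titles, their transfection label and the series design name miR-335, and the latter was followed here.

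Molecular chaperones bind unfolded or partly folded proteins and, in most families, use ATP to release them. HSP70 proteins take clients that J-domain proteins (DNAJ) deliver, HSP110 proteins exchange their nucleotide, and HSP90 proteins complete the folding of kinases and receptors. KIT, the receptor tyrosine kinase that drives most GISTs, is a known HSP90 client, and HSP90 inhibitors destabilize mutant KIT. Many of these genes carry heat shock elements, the binding motif of HSF1, in their promoters.

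The labels say miR-335 without naming a strand, and the strand miR-335-5p was assumed. The sequence of that microRNA is shown because its seed (bases 2 to 8, in capitals) determines which sites it can pair with. It is given in RefSeq on GRCh38.p14 at chr7:130496126-130496148, plus strand.
hsa-miR-335-5p: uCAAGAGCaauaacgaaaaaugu
The matching site, GCTCTTG, was present in 221 of the 50599 probe sequences (0.437%) and in 0 of the 112 member probes. A 60-base probe covers little of a transcript, so this says only that these letters are not in the probed windows. The untranslated regions of the members were not analysed here.

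Probes behind the main results are shown next, with their hg19 positions from the array files, so that values below can be tied to the part of the transcript that was read. For HSP90AB1, DNAJA1 and HSPA8 the printed probe is the brightest one, whose values are given below. For HSP90AA1 it is the second brightest, at 6.17 and 6.21 with the mimic and at 6.14 and 6.13 in the controls. Those for HSP90AB1 and DNAJA1 extend over 837 and 385 bases of the genome, and so cross at least 1 splice junction.
HSP90AA1, chr14:102549453-102549512, minus strand: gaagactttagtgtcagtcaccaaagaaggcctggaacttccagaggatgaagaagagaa
HSP90AB1, chr6:44219983-44220819, plus strand: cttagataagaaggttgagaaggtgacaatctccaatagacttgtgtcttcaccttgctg
DNAJA1, chr9:33036682-33037066, plus strand: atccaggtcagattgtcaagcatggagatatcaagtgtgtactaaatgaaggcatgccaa
HSPA8, chr11:122929478-122929537, minus strand: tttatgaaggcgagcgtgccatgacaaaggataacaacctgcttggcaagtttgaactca

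On each array, 40.3% to 41.9% of probes exceeded background well. All 4 arrays were taken to lie on 1 slide and in 1 scan, which was entered as a setting and not measured. The position of each array was not analysed here, so whether it went with the group is not known. All 6 GIST marker genes examined, KIT and ANO1 among them, were tested, whereas 0 of 3 leukocyte and 0 of 3 endothelial markers were. On their brightest probes all 6 GIST markers were lower with the mimic (median log2 difference -0.09), and none passed the threshold used below. Dimmer probes of ANO1 (0.47, adjusted p = 0.053 in limma) and ETV1 (0.01) were higher. Of 3 epithelial markers 2 were tested, KRT8 (log2 difference 0.01) and EPCAM (-0.89, adjusted p = 0.287 in limma). A dimmer KRT8 probe, against another transcript, gave -0.15 (adjusted p = 0.498 in limma), and another was well above background on 0 arrays. Of 3 smooth muscle markers 1 was tested, DES (-0.25, adjusted p = 0.177 in limma). The part of these markers in the results was not tested. Below, a level is the processed signal on the log2 scale after subtraction of its array's 75th percentile, and a difference is the mimic mean minus the control mean on that scale. Levels are compared between arrays for 1 probe, never between probes. In such bulk RNA, fewer cells of a type and less RNA per cell cannot be told apart.

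No member gene passed the threshold. In limma, 0 of 81 member probes were lower and 0 were higher at a Benjamini-Hochberg adjusted p of 0.05, where 1.15% of all 20328 tested probes were called lower and 1.47% were called higher. The adjusted p-values of the members ran from 0.066 to 0.992. At an unadjusted p of 0.05, 14 member probes were lower and 5 were higher, which together are 23.5% of the members against 25.3% of all tested probes. The study's methods name a t-test for continuous variables and none for the arrays. Applied here, that t-test gave 12 lower and 3 higher at the same unadjusted level. These are 14.8% and 3.70% of the members, against 11% and 9.27% of all tested probes. After adjustment the t-test called 0 of all 20328 probes. The smallest two-sided p of an exact permutation test of 2 arrays against 2 is 0.333, and for this reason the calls rest on limma's pooled spread.

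Of the 80 tested member probes well above background on all 4 arrays, 0 differed by more than 1.5-fold, where 2.34% of all 19352 such probes did. The other tested probe, that of HSPB8, passed the filter through the mimic arrays alone and is described with its family. It is among the probes counted as higher above and below. Of the 60 tested genes, 39 were below 0 and 21 above, with a median of -0.05. Leaving out HSPB8, their differences ran from -0.33 to 0.34. Over all 15454 tested genes, 8549 were below 0 and 6905 above, with a median of -0.02. The counts below and above 0 given for families and lists are to be read beside these, and the gap was not tested. With the brightest tested probe taken for each gene, the 95% interval of the difference lay within 1.5-fold in either direction for 56 of the 60 genes. The 4 whose interval reached past it (6.67%, against 15.2% of all tested genes) were HSPB8, DNAJC28, DNAJC25 and DNAJB13. The standard error of a difference had a median of 0.045 and ran from 0.036 to 0.174.

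**Figure D1:**
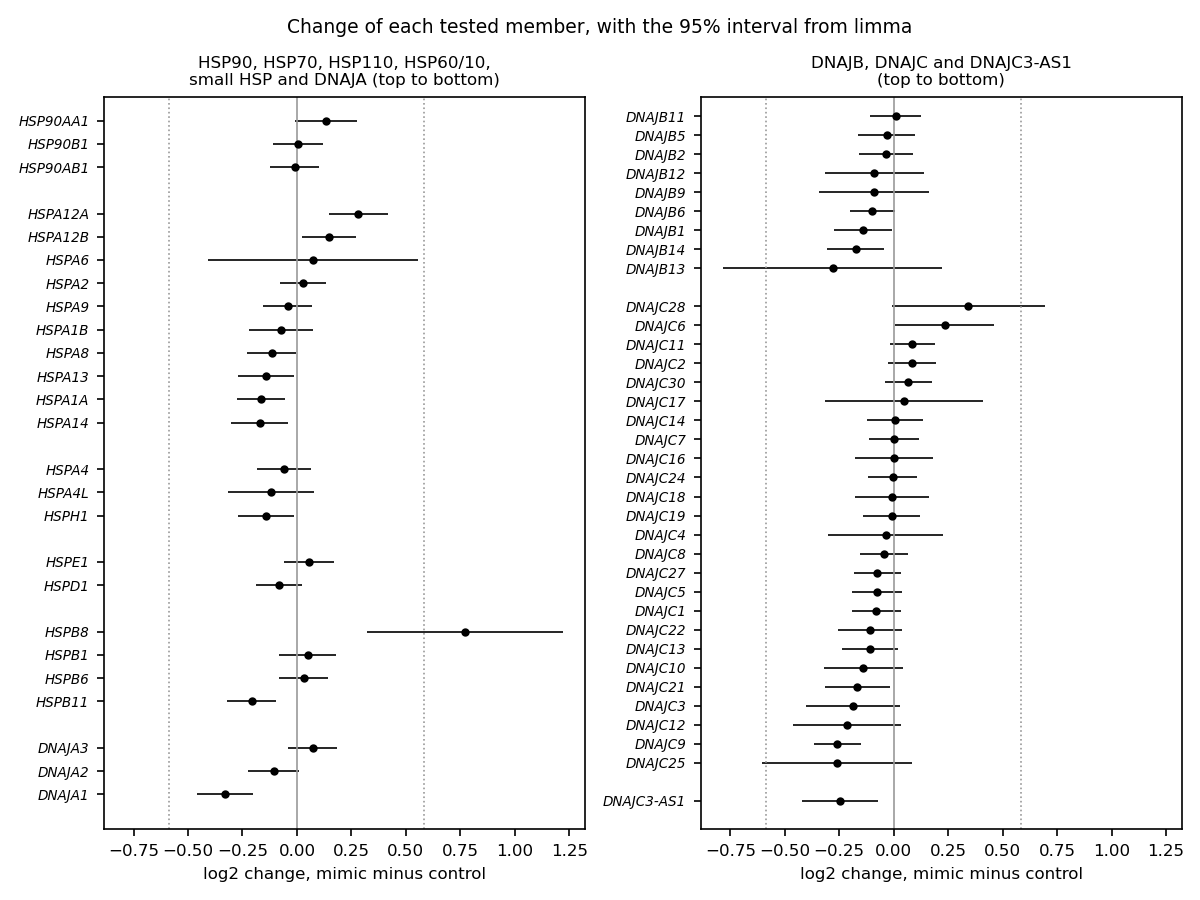
Log2 difference (mimic minus control, x axis) of the brightest tested probe of each of the 60 tested genes, grouped by family from top to bottom, with bars for the 95% interval from limma (2 arrays per group) and dotted lines at 1.5-fold. Most points lie close to 0, DNAJA1 is the lowest at -0.33, and HSPB8, drawn at 0.77 with a wide interval, was not well above background in the controls.

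Replicate arrays lay close together, so small differences were often larger than the spread between arrays. The median distance between replicate arrays over the tested member probes was 0.05 in the mimic group and 0.04 in the control group. In 35 of 81 probes both mimic arrays were below both control arrays (43.2%), and in 21 both were above (25.9%). The corresponding shares over all tested probes were 32.5% and 27.1%. The members' share above the controls was near the background. Their share below was higher than the background, and this gap was not tested.

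**Figure D2:**
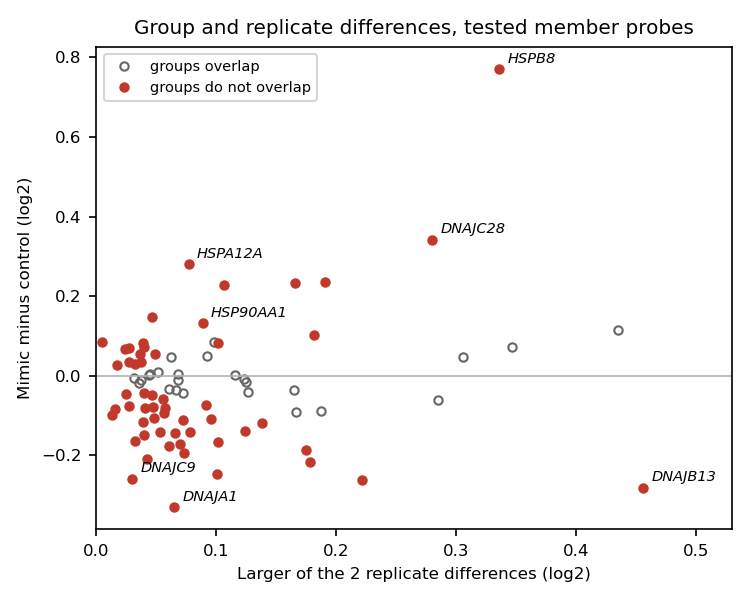
Log2 difference between the groups (y axis) against the larger of the distances between replicate arrays (x axis, log2) for the 81 tested member probes, filled where the groups do not overlap. DNAJA1, DNAJC9 and HSPA12A stand apart from 0 with close replicates, whereas the replicates of HSPB8, DNAJC28 and DNAJB13 lie wider apart.

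HSP90 genes were examined first, because KIT depends on them. HSP90AA1 encodes the inducible cytosolic HSP90. Its brightest probe was at 8.01 and 8.10 in the mimic arrays and at 7.93 and 7.91 in the controls. Both mimic arrays were above both controls, and the difference was 0.13 ± 0.05 (SE; 95% interval -0.01 to 0.27, adjusted p = 0.218 in limma). The probe printed above gave 0.06 ± 0.04 (SE, adjusted p = 0.434), and the third probe gave 0.03.

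HSP90AB1 encodes the constitutive cytosolic HSP90. Its brightest probe was at 3.93 and 3.97 in the mimic arrays and at 3.95 and 3.97 in the controls. The groups overlapped, and the difference was -0.01 ± 0.04 (SE; 95% interval -0.12 to 0.10, adjusted p = 0.890). The second probe, at 2.52 and 2.42 against 2.39 and 2.38, gave 0.08 (adjusted p = 0.401), so the probes disagreed in sign.

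HSP90B1 encodes GRP94, the HSP90 of the endoplasmic reticulum, which folds integrins and Toll-like receptors. Its brightest probe was at 7.13 and 7.14 with the mimic and at 7.15 and 7.11 in the controls. The groups overlapped, the difference was 0.00 ± 0.04 (SE; 95% interval -0.11 to 0.12, adjusted p = 0.958), and the second probe gave -0.02. The 95% intervals of the brightest probes of all 3 HSP90 genes lay within 1.21-fold of no change in either direction.

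The client itself was read by 3 tested probes. The brightest KIT probe was at 7.14 and 7.17 in the mimic arrays and at 7.49 and 7.48 in the controls. Both mimic arrays were below both controls, with a difference of -0.33 ± 0.04 (SE, adjusted p = 0.051), and the other probes gave -0.14 and -0.06. No HSP90 probe had an adjusted p below 0.218, and the difference between KIT and the HSP90 genes was not tested.

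**Figure D3:**
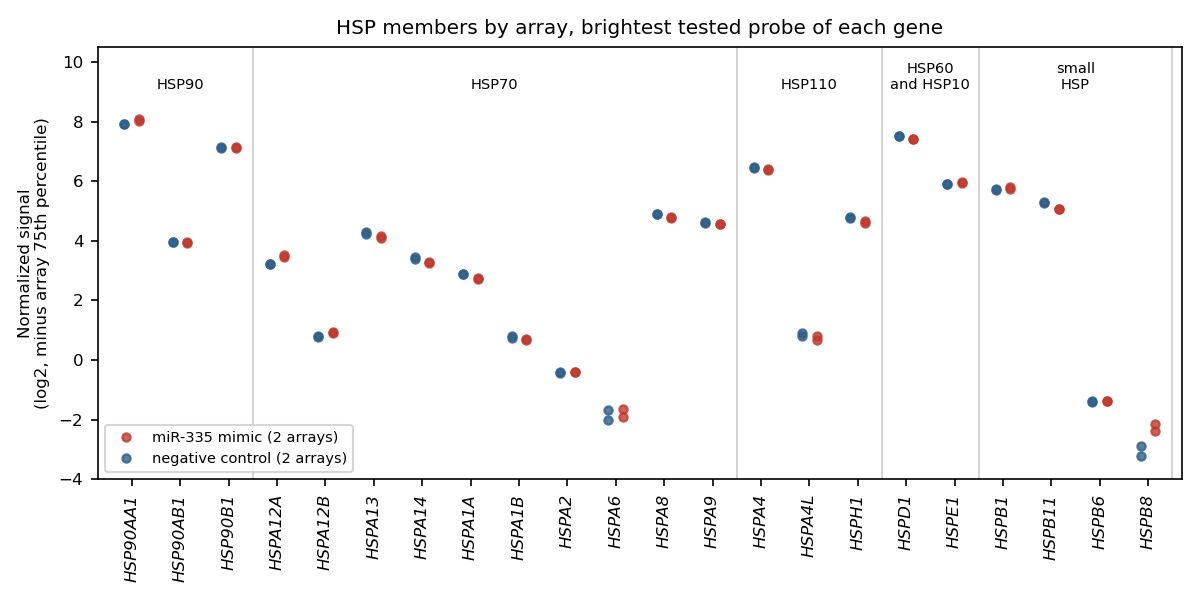
Normalized log2 signal (y axis, log2 minus the 75th percentile of the array) of the brightest tested probe of each HSP gene (x axis, by family) on the 2 mimic and 2 control arrays; heights are comparable within a gene and not between genes. The arrays of both groups nearly coincide for most genes, the mimic arrays lie above the controls for HSPA12A and HSPB8, and they lie below for HSPB11.

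HSP70 genes had 10 of 11 members tested, 6 below 0 and 4 above, with a median of -0.06 and 0 called. HSPA8, the constitutive HSC70, was at 4.80 and 4.76 with the mimic and at 4.90 and 4.89 in the controls. The difference was -0.12 ± 0.04 (SE, adjusted p = 0.188). HSPA1A, the main stress-inducible HSP70, was at 2.71 and 2.74 against 2.90 and 2.88, a difference of -0.16 ± 0.04 (SE, adjusted p = 0.122). The groups did not overlap for either gene. HSPA1B, whose transcript is nearly identical to that of HSPA1A so that their probes may cross-hybridize, differed by -0.07 (adjusted p = 0.429).

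HSPA12A, a divergent member of the HSP70 family, had the highest difference among HSP70 genes. Its levels were 3.46 and 3.54 with the mimic and 3.21 and 3.23 in the controls. The groups were clearly apart, with a difference of 0.28 ± 0.05 (SE; 95% interval 0.15 to 0.42, adjusted p = 0.081), a 1.22-fold higher level that missed the threshold. Its relative HSPA12B was at 0.95 and 0.90 against 0.76 and 0.80, a difference of 0.15 (adjusted p = 0.157).

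Among the other HSP70 genes, HSPA14, which works with the ribosome-associated chaperone complex, differed by -0.17 (adjusted p = 0.142). HSPA13, a microsomal HSP70, differed by -0.14 (adjusted p = 0.176). HSPA9, the mitochondrial HSP70 (mortalin), differed by -0.04 and HSPA2, a member best known from testis, by 0.03. HSPA6, a strictly stress-inducible HSP70, was dim, at -1.64 and -1.91 against -1.68 and -2.02. Its groups overlapped, and its interval, -0.41 to 0.56, was wide. HSPA1L was not tested: it was at 0.78 on 1 mimic array, where it was well above background, and between -4.14 and -2.78 on the others.

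All 3 HSP110 genes, nucleotide exchange factors of HSP70, were below 0, with a median of -0.12 and 0 called. HSPH1 was at 4.60 and 4.66 with the mimic and at 4.76 and 4.79 in the controls, a difference of -0.14 ± 0.04 (SE, adjusted p = 0.174). Its second probe gave -0.19 (adjusted p = 0.140), and the groups did not overlap for either. HSPA4 differed by -0.06 and HSPA4L by -0.12.

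HSPD1 and HSPE1, which form the HSP60 and HSP10 folding chamber of the mitochondrial matrix and share a bidirectional promoter, lay on opposite sides of 0. HSPD1 was at 7.41 and 7.43 against 7.50 and 7.50, a difference of -0.08 ± 0.04 (SE, adjusted p = 0.263). HSPE1 was at 5.93 and 5.97 against 5.89 and 5.90, a difference of 0.05 ± 0.04 (SE, adjusted p = 0.453). The difference between the pair was not tested.

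Small heat shock proteins hold unfolded proteins without ATP, and 4 of their 8 listed genes were tested. HSPB1 (HSP27) differed by 0.05 on its brightest probe, with 0.07 and -0.02 on the others, and HSPB6 (HSP20) by 0.03. HSPB8 (HSP22), the partner of BAG3 in autophagy of misfolded proteins, was at -2.16 and -2.39 with the mimic and at -3.21 and -2.88 in the controls. It was well above background on the mimic arrays only and was tested for that reason, so its direction follows from the filter. Control levels were raised, where lower, to the lowest level well above background on their array, which gave a fold of 1.56. This is a point value and not a confidence limit, and the adjusted p of 0.104 in limma adds no support. A second HSPB8 probe, against another transcript and not tested, was at -3.78 and -5.18 with the mimic and at -3.43 and -3.08 in the controls, well above background on 1 array. BAG3 itself differed by -0.16 (adjusted p = 0.189).

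HSPB11 carries the name of a small heat shock protein but is listed in RefSeq as IFT25, a subunit of the intraflagellar transport complex of cilia. It was at 5.07 and 5.07 with the mimic and at 5.30 and 5.26 in the controls, a difference of -0.21 ± 0.04 (SE, adjusted p = 0.094). HSPB2, HSPB3, HSPB7 and HSPB9 were well above background on 0 arrays.

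J-domain proteins stimulate the ATPase of HSP70 and choose its clients. Of 44 listed DNAJ genes, 37 were tested: 26 were below 0 and 11 above, with a median of -0.08 and 0 called. By class, the medians were -0.11 for DNAJA (3 genes tested), -0.09 for DNAJB (9 genes, 8 below 0) and -0.04 for DNAJC (25 genes, 16 below 0).

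DNAJA1 encodes the cytosolic type I J protein that works with HSC70. It was at 3.02 and 3.06 in the mimic arrays and at 3.40 and 3.34 in the controls. The groups did not overlap, and the difference of -0.33 ± 0.05 (SE; 95% interval -0.46 to -0.20) had the lowest adjusted p of all members, 0.066. DNAJA2, its close relative, differed by -0.11 (adjusted p = 0.219). DNAJA3, the mitochondrial J protein TID1, differed by 0.07 (adjusted p = 0.333).

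DNAJC9, a nuclear J protein that also chaperones histones H3 and H4, was at 3.58 and 3.61 with the mimic and at 3.86 and 3.85 in the controls. Its replicates were within 0.03 of each other, and the difference was -0.26 ± 0.04 (SE; 95% interval -0.37 to -0.15, adjusted p = 0.070).

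DNAJB1 (HSP40), the main stress-inducible partner of HSPA1A, was at 1.68 and 1.76 with the mimic and at 1.86 and 1.87 in the controls, a difference of -0.14 ± 0.05 (SE, adjusted p = 0.184). DNAJB6, a suppressor of polyglutamine aggregation, was read by 3 tested probes that disagreed. The brightest, at 6.35 and 6.34 against 6.44 and 6.44, gave -0.10 (adjusted p = 0.210), the next gave -0.04, and the dimmest, at 0.40 and 0.51 against 0.19 and 0.27, gave 0.23 (adjusted p = 0.144). DNAJB6 has isoforms that differ at the 3' end, and which of them each probe reads was not analysed here.

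The 5 lowest and the 5 highest DNAJ genes were named by rule. Beside DNAJA1 and DNAJC9, the lowest were DNAJB13, a sperm flagellar protein (-0.28, adjusted p = 0.389), DNAJC25 (-0.26, adjusted p = 0.278) and DNAJC12 (-0.22, adjusted p = 0.237), a chaperone of aromatic amino acid hydroxylases. DNAJB13 was at -2.92 on 1 mimic array and at -2.47 on the other, against -2.39 and -2.44, so that the mimic arrays were farther from each other than the groups were. The highest were DNAJC28 (0.34, adjusted p = 0.203), DNAJC6, the auxilin that uncoats clathrin vesicles (0.23, adjusted p = 0.190), DNAJC11 (0.08), DNAJC2, the ribosome-associated zuotin homolog (0.08), and DNAJA3 (0.07).

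Several DNAJ proteins of the endoplasmic reticulum serve BiP or the removal of misfolded proteins. In the list of 13 endoplasmic reticulum members, HSP90B1 included, 13 were tested, 9 were below 0 and 4 above, with a median of -0.09 and 0 called. DNAJB9 (ERdj4), a target of the unfolded protein response, was at 3.82 and 3.96 against 3.90 and 4.06 and its groups overlapped (-0.09). DNAJC3 (p58IPK), an inhibitor of the kinase PERK, was at 0.35 and 0.53 against 0.63 and 0.63 (-0.19, adjusted p = 0.235). DNAJB11 (ERdj3) was at 5.85 and 5.90 against 5.86 and 5.87 (0.01). DNAJB14, a membrane-bound J protein there, was at 2.00 and 1.94 against 2.17 and 2.13 (-0.18, adjusted p = 0.139).

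The other lists had no call either. Of 16 members listed as heat-inducible, 15 were tested, with 10 below 0 and 5 above and a median of -0.08. That list also holds HSPA8 and HSP90AB1, which are called constitutive above. Of 10 mitochondrial members, 9 were tested, with 4 below 0 and 5 above and a median of 0.05. DNAJC3-AS1, a noncoding transcript beside DNAJC3, gave -0.25 (adjusted p = 0.128) on one probe and 0.10 on the other. In all, 18 member genes had more than 1 tested probe, and in 8 of them the probes differed in sign.

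The 14 genes that were not tested were well above background on no more than 1 array of a group, so no difference is given for them. Beside HSPA1L and the 4 small heat shock genes, they were DNAJA4, DNAJB4, DNAJB7, DNAJB8, DNAJC5B, DNAJC5G, DNAJC15, DNAJB8-AS1 and DNAJC27-AS1. In all, 25 of 112 member probes were well above background on 0 arrays and 80 on all 4.

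To see whether regulators and partners moved with the members, 63 other genes of the pathway were counted, of which 59 were tested. Their median was 0.02, with 22 below 0 and 37 above, 0 called lower and 1 called higher. This is 1.69% called higher, near the 1.42% of all tested genes (1.34% were called lower). The called gene was AHSA2, a relative of the HSP90 activator AHSA1 that RefSeq now lists as the transcribed pseudogene AHSA2P. Its brightest probe was at 3.15 and 3.18 with the mimic and at 2.79 and 2.79 in the controls, a difference of 0.37 ± 0.04 (SE, adjusted p = 0.046). A dimmer AHSA2 probe gave -0.23 (adjusted p = 0.546), and with any 1 array left out the difference ran from 0.36 to 0.39 (adjusted p from 0.168 to 0.200). In those fits 0 to 8 of all 20328 probes were called, so the loss of this call says nothing about the gene.

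Of 21 HSP90 cochaperones, 21 were tested, with 5 below 0 and 16 above and a median of 0.07. AHSA1 differed by 0.07, CDC37, which loads kinases onto HSP90, by 0.09, and STIP1, which links HSP70 to HSP90, by 0.02. Among these cochaperones PPID gave the lowest value, -0.14 (adjusted p = 0.147 in limma). Of the heat shock factor list, 4 of 6 genes were tested, and HSF4 and HSF5 were not. HSF1, the main heat shock transcription factor, differed by 0.08 (adjusted p = 0.289 in limma) and HSF2 by 0.01. Beside the factors, the list holds HSBP1 (-0.02) and HSBP1L1 (-0.27, adjusted p = 0.112 in limma), whose groups did not overlap for HSBP1L1. The medians were -0.02 for 12 genes of the HSP70 helper list and 0.04 for 8 subunits of the TRiC chaperonin. They were 0.00 for 6 prefoldin subunits and 0.03 for 8 mitochondrial chaperones and proteases. The helper list also holds SERPINH1 (0.07), a collagen chaperone.

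Since HSF1 acts through heat shock elements, the members' promoters were searched for 3 alternating units, TTCNNGAANNTTC, on both strands. RefSeq promoters on GRCh38.p14 (250 bases before to 50 after the start) were at hand for 67 members. The motif was in 4 of them (5.97%) and in 133 of 27305 promoters (0.487%). The 4 were HSPA6, HSPA8, DNAJB6 and DNAJA1, where the match of DNAJA1 lies after the start. A match describes the letters, not binding, and shorter or degenerate elements were not searched. The 250 bases before the start of the other 3 are printed with the matches in capitals.
HSPA6, from chr1:161524290-161524589, plus strand: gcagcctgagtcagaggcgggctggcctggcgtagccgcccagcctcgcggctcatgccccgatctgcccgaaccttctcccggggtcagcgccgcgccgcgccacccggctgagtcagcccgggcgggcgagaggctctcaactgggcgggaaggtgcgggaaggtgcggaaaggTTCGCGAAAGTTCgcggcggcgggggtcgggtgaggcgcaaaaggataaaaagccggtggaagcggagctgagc
HSPA8, from chr11:123062087-123062386, minus strand: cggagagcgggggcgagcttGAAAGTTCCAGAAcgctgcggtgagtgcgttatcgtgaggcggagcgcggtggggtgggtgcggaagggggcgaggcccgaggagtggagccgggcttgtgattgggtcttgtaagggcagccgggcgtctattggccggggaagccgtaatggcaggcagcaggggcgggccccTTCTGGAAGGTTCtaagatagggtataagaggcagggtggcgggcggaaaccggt
DNAJB6, from chr7:157336754-157337053, plus strand: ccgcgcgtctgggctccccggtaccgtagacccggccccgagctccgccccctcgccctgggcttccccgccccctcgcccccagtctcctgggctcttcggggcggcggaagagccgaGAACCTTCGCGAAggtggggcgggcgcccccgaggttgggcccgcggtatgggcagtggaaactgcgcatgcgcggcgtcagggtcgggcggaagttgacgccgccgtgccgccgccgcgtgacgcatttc
The differences were -0.33 for DNAJA1, -0.12 for HSPA8, -0.10 for DNAJB6 and 0.07 for HSPA6, whose groups overlapped, and none passed the threshold.

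How many members were called depended on how the arrays were scaled and how the spread was modeled. With an intensity trend in limma's spread, 12 probes of 11 genes were called lower and 2 were called higher (14.8% and 2.47%, against 8.54% and 6.63% of all probes). Those lower were from DNAJA1, DNAJB6, DNAJB14, DNAJC9, DNAJC21, HSPA1A, HSPA8, HSPA13, HSPA14, HSPB11 and HSPH1, and those higher from HSP90AA1 and HSPA12A. With normexp background correction, DNAJA1, DNAJC9 and HSPB11 were called lower and HSPA12A and HSPB8 higher, shares of 3.70% and 2.47% against 3.73% and 3.90% of all probes. The direction of HSPB8 follows from the filter here too. Scaling to the spike-in probes moved the median of all tested probes to -0.20, and 48 members were then called lower (59.3%, against 44.2% of all probes) and 0 higher. The members' own median was -0.24 on that scale, with the brightest probe of each gene. Genes whose positive difference was smaller than this shift, HSP90AA1 (-0.05) and HSPE1 (-0.13) among them, turned negative there.

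**Figure D4:**
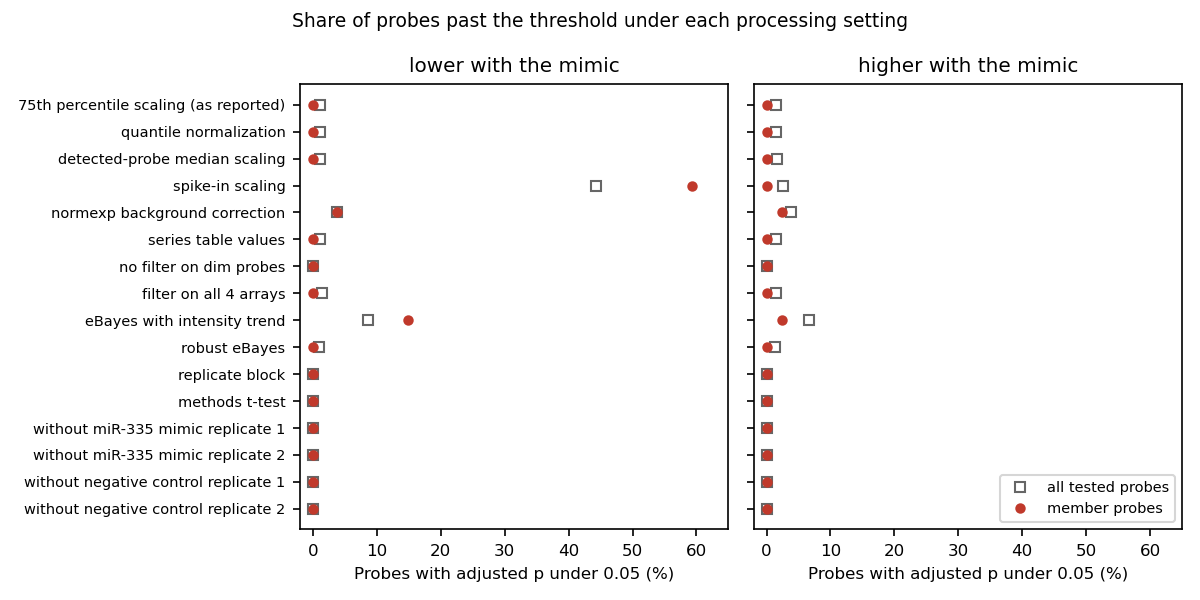
Share of tested probes with an adjusted p under 0.05 (x axis, %) lower (left) and higher (right) with the mimic, for member probes (filled circles) and all tested probes (open squares), under each processing setting (y axis). Member calls appear under spike-in scaling, normexp background correction and the intensity trend, and are 0 in the other settings drawn.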

How the data were processed

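The authors deposited 1 scanner file per array, holding spot intensity values from Feature Extraction (10.7 in the submitters' processing notes, 10.7.3.1 per the file headers). The processed intensity was background-subtracted and not normalized between arrays. Control and outlier spots were left out, replicate spots of a probe were averaged, and each array's 75th percentile was subtracted from the log2 intensity. Probes well above background (on at least 0.5 of their spots) on both arrays of 1 group were tested with limma 3.58.1 in R 4.3.3 (lmFit, eBayes, no covariates), with Benjamini-Hochberg adjustment over 20328 probes and a threshold of 0.05. The script was tested on simulated data. The deposited series table holds the same intensity, rounded, and was used as an alternative. Its columns matched to no sample numbered 0.

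Named genes were every tested HSP gene, any called DNAJ gene, and the 5 lowest and 5 highest DNAJ genes; other DNAJ genes, the probes printed and the promoters shown were chosen after their values were seen. The members and lists were chosen with earlier results of these data known. All 74 member genes matched RefSeq (GRCh38.p14). Gene names are those of the array files. With 2 arrays per group, their number limits the precision. Alternatives were other scalings, background corrections, filters, spread models, the methods' t-test, a replicate block and leaving out each array. A slide or scan block was not fitted, since all arrays were taken to share both. Same-numbered arrays did not deviate together (correlation of replicate differences 0.03). Figures were drawn with matplotlib 3.10.9.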

Additional observations from a re-analysis of the deposited data

How the results depend on the processing

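No member was called under quantile normalization, detected-probe median scaling, the series table values, robust eBayes or the filter on all 4 arrays. The count was also 0 with no filter, in the adjusted t-test, with any 1 array left out (0 to 0) and with the replicate number as a block (smallest adjusted p 0.155; the numbers did not pair the arrays). These last settings called 0 of all tested probes, or 8 without miR-335 mimic replicate 2, and say nothing about stability. Spike-in scaling called 48 lower, normexp 3 lower and 2 higher, the intensity trend 12 lower and 2 higher, and the unadjusted t-test 12 lower and 3 higher. The cause was not tested.

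Spike-in scaling, which shifts all probes, moved the medians to -0.24 for all members, -0.29 for DNAJA, -0.28 for DNAJB, -0.22 for DNAJC, -0.31 for HSP110, -0.24 for HSP70, -0.18 for HSP90 and -0.15 for small HSP. It turned HSPE1 to -0.13, HSPA12B to -0.039, HSPA2 to -0.16, HSPA6 to -0.11, HSP90AA1 to -0.055, HSP90B1 to -0.18, HSPB1 to -0.14, HSPB6 to -0.16, DNAJA3 to -0.11 and DNAJC2 and DNAJC11 to -0.10. The DNAJA median was -0.058 with normexp and -0.16 with no filter. Detected-probe median scaling gave -0.038 for HSP70, 0.060 for small HSP and 0.011 for HSP90AB1. Quantile normalization gave -0.0073 for HSP90B1, and all tested probes gave an HSP90 median of 0.034.

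With 1 array left out, the medians ran from -0.14 to -0.062 for DNAJB (lowest without negative control replicate 1), from -0.18 to -0.050 for HSP110 (highest without miR-335 mimic replicate 1) and from -0.081 to -0.047 for HSP70 (lowest without negative control replicate 2). HSPA6 ran from -0.10 to 0.25, HSP90AB1 from -0.029 to 0.0086 and HSP90B1 from -0.018 to 0.027. AHSA2 (0.37) was not called with no filter, with the replicate block or in the adjusted t-test, where no probe was, and KIT passed the threshold under detected-probe median scaling (-0.31), spike-in scaling (-0.52), normexp (-0.35), the filter on all 4 arrays and the intensity trend (-0.33 in both). Dim probes limit what can be seen: 31 member probes were not tested.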
